A study of Mus musculus with 96 samples.

Results

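The clones described here are GMP-derived leukaemia clones that were abundant in the cell pool before transplantation and stayed under a set ceiling in every recipient. Each clone is read through a SPLINTR barcode, a DNA tag of the mCherry library that marks a transduced cell and its descendants. Members were selected on measured values, namely a level of at least 5000 CPM (counts per 1000000 barcode reads) in the GMP pool and a level under 10000 CPM in each of the 31 marrow and spleen libraries of mice that received GMP-derived cells. Of 4675 barcodes in the tables, 3078 belonged to the mCherry library, 39 of these reached the pool minimum, and 32 also stayed under the ceiling and are the members. All carry names that begin with mCHERRY_2_Barcode_ and are called by their number below. Since pool level and mouse level chose the members, their fall from pool to mouse is given as a description without a test.

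The study set leukaemias of 2 cells of origin against each other in mice. LSK cells, an immature fraction sorted as Lin-, c-Kit+ and Sca-1+, and GMP cells, sorted as Lin-, c-Kit+, CD34+ and FcγR high, came from the marrow of female C57BL/6 donors 6 to 8 weeks old. Both carried the MLL-AF9 retrovirus, were cultured with IL-3, IL-6 and SCF, and were barcoded, with mCherry barcodes in GMP-derived and GFP barcodes in LSK-derived cells. Ptprca mice (mice 5 to 8) and NSG mice (mice 13 to 16) received GMP-derived cells alone, while Ptprca mice 17 to 20 and NSG mice 21 to 24 received a mixture of LSK-derived and GMP-derived cells, with 4 mice in each of the 4 groups. Marrow and spleen were sequenced, except that only the spleen of mouse 24 was analysed here. Another 7 mice received LSK-derived cells alone. The age of the hosts, their conditioning and the number of cells injected are not given in the sources used here. All mice drew on 1 pool per origin, so the replicates are mice that share their starting cells. The host tables were deposited separately. The sources used here do not say whether the samples of the 2 hosts were also prepared separately.

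GMP cells are committed precursors of granulocytes and monocytes, and LSK cells include the stem and multipotent cells above them. The MLL-AF9 fusion gives such precursors the ability to renew themselves and to cause acute myeloid leukaemia in mice. Heritable barcodes allow the same clone to be followed in several animals, because sister cells of a clone are injected into each of them. NSG mice lack T, B and NK cells, and Ptprca is an allele of a leukocyte surface antigen gene that serves to tell host from donor cells.

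All levels below are CPM of the mCherry reads of a library, so that LSK reads in a mixed recipient do not lower them, and the value of a mouse is the mean of its marrow and spleen. Levels are shares, so a clone can fall while its cells grow, if other clones grow more. The 31 libraries held 5239254 to 7814019 reads, of which 1562645 to 7341241 were mCherry reads. A barcode at 0 reads may therefore reach a level of 0.409 to 1.92 CPM (3 reads), a limit that covers counting error only.

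Some libraries need to be read with care at low levels. In the marrow library of mouse 8, 600 of the 607 mCherry barcodes at or over 100 CPM in the GMP pool were listed, whereas the other 30 libraries listed 26 to 196 of them. The median barcode of the pool stood there at 0.36% of its pool level, and all 32 members were above 0, the lowest at 19.5 CPM. In the spleen of the same mouse 13 members were at 0. Recipients of LSK cells alone, which were given no GMP-derived cells, show the level of stray reads. In their 14 libraries no member exceeded 2.50 CPM of all reads (18 reads). Of these libraries 4 listed no member, 8 listed 1 to 5, and the marrow libraries of mouse 12 and mouse 1 listed 31 members each. Counts of members in mice are therefore given at a minimum of 100 CPM, and the main results that use the marrow of mouse 8 are also given without it. The source of the low reads was not tested.

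In the GMP pool the 32 members together made up 28.2% of the mCherry reads, at ranks 5 to 39 of the library. Their pool levels ran from 5030 to 19205 CPM of all reads, with a median of 7688 CPM. The most abundant was 34872 at 1.92% of the reads (95% Wilson interval 1.91% to 1.93%, from 93258 reads), followed by 51624 at 1.90%, 98414 at 1.49%, 11368 at 1.37% and 320017 at 1.36%. The next were 138752 at 1.12%, 168783 at 1.02%, 902317 at 0.974%, 139413 at 0.953% and 53851 at 0.947%. The mixed pool, which the rule did not use, showed the members at nearly the same levels. There they held 27.9% of the mCherry reads, and the ratio of a member's level in the mixed pool to that in the GMP pool ranged from 0.90 (579248) to 1.21 (72590), with a median of 0.981.

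At the edges of the rule, 611025 (5030 CPM in the pool) and 1050853 (5042 CPM) were the members nearest above the pool minimum. Just below it, 421908 at 4944 CPM and 145794 at 4883 CPM met the ceiling and were left out by their pool level alone. The highest values of any member in a mouse library, as deposited, were 5101 CPM for 321280 in the marrow of mouse 6 and 4478 CPM (of all reads) for 98414 in the marrow of mouse 7. The nearest barcodes outside were 205626, which reached 10194 CPM, and 632433, which reached 19663 CPM. No member thus lay between 5101 CPM and the ceiling. The ceiling applies to all reads, and in mixed recipients it allows a higher level within the mCherry library.

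In mice the members fell from 28.2% of the GMP pool to at most 1.66% of the GMP-derived reads of any mouse. In Ptprca recipients of GMP cells they summed to 1.40%, 1.66%, 1.25% and 1.30% in mice 5 to 8, a mean of 1.40% ± 0.18 (SD, n = 4), which is 20.1-fold below the pool. In NSG recipients of GMP cells the sums were 0.286%, 0.187%, 0.144% and 0.206% in mice 13 to 16, a mean of 0.206% ± 0.060 (SD, n = 4) and 137-fold below the pool. Every Ptprca mouse was above every NSG mouse, and the means differed 6.83-fold.

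With LSK cells in the same mouse the Ptprca sums were 0.959%, 1.06%, 1.0% and 1.16% in mice 17 to 20, a mean of 1.05% ± 0.089 (SD, n = 4). In NSG mice 21 to 24 they were 0.0424%, 0.0195%, 0.0026% and 1.11%, a mean of 0.293% ± 0.543 (SD, n = 4). The last NSG value comes from the spleen of mouse 24, in which 321280 alone supplied 91.4% of the members' reads. It lay above 3 of the 4 Ptprca values, so these groups overlapped, and without it the NSG mean was 0.0215% ± 0.0199 (SD, n = 3), 48.7-fold below the Ptprca mean in place of 3.57-fold.

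For comparison, the 7 abundant barcodes that did cross the ceiling held 14.3% of the mCherry reads of the GMP pool. In the mice they summed to 45.7% ± 3.20 (Ptprca, GMP alone), 51.2% ± 3.63 (NSG, GMP alone), 52.8% ± 4.30 (Ptprca, mixed) and 47.8% ± 3.24 (NSG, mixed), each as mean ± SD over 4 mice. These values are part of the choice of members and are not a test of it.

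The number of members still present was also higher in Ptprca than in NSG mice. At 100 CPM or more, Ptprca recipients of GMP cells kept 13, 18, 15 and 15 of the 32 members (mean 15.2 ± 2.06 SD, n = 4, or 13.5 without the marrow library of mouse 8), and NSG recipients kept 4, 2, 1 and 2 (mean 2.25 ± 1.26 SD, n = 4). In the mean of 13.5, mouse 8 counts by its spleen alone, where 8 members reached 100 CPM. The change therefore includes a difference of tissue. Mixed Ptprca recipients kept 14, 9, 11 and 13 (mean 11.8 ± 2.22 SD, n = 4), and mixed NSG recipients 2, 0, 0 and 2 (mean 1 ± 1.15 SD, n = 4). In both recipient types each Ptprca mouse held more members than any NSG mouse.

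Seen clone by clone, 22 members reached 100 CPM in at least 1 Ptprca mouse and 6 in at least 1 NSG mouse, while 10 stayed under 100 CPM in all 16 mice. Of the 22, 5 did so in 8 or more mice, 10 in 4 to 7 mice and 7 in 1 to 3 mice. Only 5 members (10809, 35245, 109489, 321280 and 611025) were at 100 CPM or more in all 8 Ptprca mice, and none was in all 8 NSG mice. Zero reads were found for 480 of the 992 combinations of member and library (48.4%). The share of zeros was 24.6% of 256 combinations in Ptprca recipients of GMP cells (28.1% of 224 without the marrow library of mouse 8), 36.3% of 256 in mixed Ptprca recipients, 59.0% of 256 in NSG recipients of GMP cells and 77.2% of 224 in mixed NSG recipients.

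Members of like abundance in the pool differed widely in what remained. Clones 63301 (0.684% of the pool), 10809 (0.76%) and 321280 (0.804%) kept 0.01002%, 14.99% and 22.3% of their pool level as the mean of the 16 mice. For 63301 this value comes almost wholly from the marrow library of mouse 8, and without it the mean was 6.69e-05% of the pool level. Over the 32 members, the pool level and the mean of the 16 mice had a Spearman's rho of 0.136, given as a description over clones that share libraries and were chosen within a narrow range of pool levels. The mean over mice ran from 0.01002% of the pool level (63301) through a median of 0.960% to 22.3% (321280).

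The member with the highest mean over the 16 mice was 321280, an order that rests on mouse 24. Without that mouse its mean was 1236 CPM (15.4% of its pool level) and that of 10809 was 1215 CPM (15.99%). The mouse levels of 321280 were 1107, 2702, 1791 and 1703 CPM in Ptprca mice 5 to 8 and 2328, 1679, 1285 and 1258 CPM in NSG mice 13 to 16. In mixed Ptprca mice 17 to 20 it stood at 674, 941, 1232 and 1640 CPM, and in mixed NSG mice 21 to 24 at 190, 11.5, 4.80 and 10111 CPM. The hosts overlapped in the recipients of GMP cells alone, and the mixed NSG mice held its lowest and its highest values. In mouse 24 it exceeded its own pool level (0.804% of all reads in the GMP pool), the only such case among the 32 members and 16 mice. Its difference between hosts was not called (log2 difference Ptprca minus NSG 1.44, SE 1.05, limma adjusted p = 0.427).

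In NSG recipients of GMP cells this clone was most of what was left of the members. It supplied on average 80.5% of the members' reads in NSG recipients of GMP cells, against 12.9% in Ptprca recipients of GMP cells. In mixed NSG recipients its mean share was 40.2%, and the highest member was 611025 in mouse 22 and 109489 in mouse 23. Together with 109489 the share was 93.5% in NSG and 24.2% in Ptprca recipients of GMP cells. Clone 109489 was at 171, 172, 38.5 and 702 CPM in NSG mice 13 to 16 and at 2207, 1636, 1550 and 950 CPM in Ptprca mice 5 to 8, and these groups did not overlap. In the mixed recipients it was at 1163, 510, 528 and 1394 CPM in Ptprca mice 17 to 20 and at 45.5, 13.6, 21.04 and 8.30 CPM in NSG mice 21 to 24, again without overlap. Each of these clones was at 0 reads in 1 of the 31 libraries.

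Whether members differed between hosts was tested with limma on log2(CPM + 10) over the 607 mCherry barcodes with at least 100 CPM in the GMP pool, with 16 mice in 4 groups. The test is two-sided with Benjamini-Hochberg adjustment over all 607, and the fold it gives understates changes of clones near 0. The pool minimum of the rule does not depend on the mice, but its ceiling bounds how high a member can be in either host. Of the 32 members, 16 were higher in Ptprca and none was lower. Over all tested barcodes 9.39% were called higher in Ptprca and 0.494% lower. When only barcodes with at least 1000 CPM in the pool were tested, 28.1% of 221 were called higher, and so were 17 members. The median log2 difference (Ptprca minus NSG) was 2.18 over the members and 0.05 over all tested barcodes, and the sign was positive for 32 of 32 members. Without the marrow library of mouse 8 it was positive for 29 and negative for 3 (63301, 262814 and 498808), with a median of 2.11. In mixed recipients alone it was positive for 26 and negative for none, and the difference of the rest was 0. Of the 7 abundant clones that crossed the ceiling, 1 was called higher in Ptprca, and their median log2 difference was 0.12. In mixed recipients alone 6 members were called higher, and so were 26 of the 607 barcodes. Without the marrow library of mouse 8, 14 members were called.

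Host groups were also set side by side without a test. The lowest Ptprca mouse was above the highest NSG mouse for 18 members in recipients of GMP cells (background 13.5% of the 607 barcodes), for 11 members in mixed recipients (background 9.06%), and for 9 members over all 8 mice of each host (background 5.6%).

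Among the members called, 10809 had the lowest adjusted p. It stood at 1971, 1317, 458 and 2660 CPM in Ptprca mice 5 to 8 and at 1393, 3856, 3345 and 3187 CPM in Ptprca mice 17 to 20. In NSG mice it was at 1.21, 0.29, 16.3 and 0 CPM (mice 13 to 16) and at 9.03, 11.6, 0.32 and 0 CPM (mice 21 to 24). All 8 Ptprca mice were above all 8 NSG mice, with a log2 difference of 7.13 (SE 0.45, limma adjusted p = 6.2e-08). It was the highest member on average in mixed Ptprca recipients.

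Clone 35245 had nearly the same profile, with 2150, 1182, 479 and 2356 CPM in Ptprca mice 5 to 8 and 1543, 2999, 2733 and 2874 CPM in mice 17 to 20. In NSG mice it was highest in mouse 15, at 49.7 CPM, and at most 8.74 CPM in the other 7. Its log2 difference was 6.89 (SE 0.48, limma adjusted p = 1.55e-07). The next were 95590 (log2 difference 3.95, SE 0.31, limma adjusted p = 6.63e-07) and 184185 (3.74, SE 0.30, limma adjusted p = 7.23e-07), both low but steady in Ptprca mice. Clone 95590 was at 87.9, 138, 366 and 160 CPM in mice 5 to 8 and at 178, 100 and 154 CPM in mice 17 to 19 and 206 CPM in mouse 20, against at most 6.16 CPM in any NSG mouse. Clone 184185 was at 86.8, 226, 139 and 109 CPM in mice 5 to 8 and at 58.1, 138, 233 and 104 CPM in mice 17 to 20, against at most 0.521 CPM in any NSG mouse. Neither overlapped between hosts.

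Next came 51624, the second most abundant member of the pool, with a log2 difference of 4.26 (SE 0.43, limma adjusted p = 7.06e-06), not called in mixed recipients alone (adjusted p = 0.0837). Its levels were 1210, 871, 998 and 725 CPM in Ptprca mice 5 to 8, then 22.2, 32.9, 46.15 and 244 CPM in mixed Ptprca mice 17 to 20. In NSG mice it did not exceed 17.7 CPM. The fifth most retained member, 611025, stood at 373, 1495, 501 and 306 CPM in mice 5 to 8 and at 1722, 162, 204 and 596 CPM in mice 17 to 20. In NSG mice it was at 0.17, 0.22, 7.13 and 5.63 CPM in mice 13 to 16 and at 110, 94.0, 0 and 0 CPM in mice 21 to 24, all below the lowest Ptprca mouse.

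Mixed recipients allow the comparison of GMP-derived clones with and without LSK-derived cells. GMP-derived reads made up 49.4% of the mixed pool, so a mixed recipient also received fewer GMP-derived cells if the injected dose was the same, and the presence of LSK cells and a smaller dose cannot be told apart. GMP-derived reads made up 49.9% to 67.6% of the reads in mixed Ptprca libraries and 20.4% to 56.1% in mixed NSG libraries. No member was called between mixed recipients and recipients of GMP cells alone (background 0% higher and 0% lower of 607). In limma, 5 of the 32 members and 31 of the 607 barcodes had an unadjusted p under 0.05, and edgeR on the recovered reads called 0 members with TMM and 0 without. The median log2 difference (with minus without LSK cells) was -0.30 over the members and -0.02 over all tested barcodes, and 25 of the 32 members had a negative sign. Some other settings called 1 to 3 members lower with LSK cells. The 3 came from CPM as deposited, a scale on which LSK reads lower the levels in mixed recipients. For the settings that follow, the count over all tested barcodes is also given. With a mean of at least 100 CPM over mice, 2 members and 5 of 82 barcodes were called lower. Without trend, 1 member and 2 of the 607 barcodes were called lower.

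The members nearest to a call were 51624 and 138752. For 51624 the log2 difference with minus without LSK cells was -2.06 (SE 0.43, limma adjusted p = 0.0904), and the Ptprca values given above do not overlap. For 138752 it was -1.88 (SE 0.44, limma adjusted p = 0.165). That clone was at 867, 582, 794 and 488 CPM in Ptprca mice 5 to 8 and at 11.2, 24.96, 29.8 and 173 CPM in Ptprca mice 17 to 20, which do not overlap, and at most 17.7 CPM in NSG mice. For 10809 the log2 difference was 0.58 (SE 0.45, limma adjusted p = 0.517), and its Ptprca groups overlapped. Whether the host difference itself depended on LSK cells was tested as an interaction, and no member was called (background 0.165% positive and 0% negative of 607). In that test 2 members and 25 barcodes had an unadjusted p under 0.05 in limma, and edgeR called 0 members with TMM and 0 without. The lowest adjusted p values of members were 0.195 for 138752 and 0.224 for 51624. With mouse 8 left out 1 member was called, and with mouse 20 left out 2 members. The number called among all barcodes in those fits is not given here.

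What was left of the members was found more in marrow than in spleen in Ptprca mice and in NSG recipients of GMP cells. In Ptprca recipients of GMP cells the members summed to 2.29% ± 0.31 of the mCherry reads in marrow and 0.515% ± 0.099 in spleen (SD, n = 4 each). In NSG recipients of GMP cells the sums were 0.378% ± 0.114 and 0.0335% ± 0.0256 (SD, n = 4 each), and in mixed Ptprca recipients 1.75% ± 0.21 and 0.347% ± 0.118 (SD, n = 4 each). In each of these 12 mice marrow was above spleen, by 3.82 to 5.78-fold, 4.60 to 33.8-fold and 3.66 to 11.01-fold in the order given. In the mixed NSG mice with both tissues, marrow was above spleen in 1 of 3, and the ratio ran from 0.243 to 4.11. The 7 abundant clones that crossed the ceiling were also higher in the marrow of Ptprca recipients of GMP cells, at 53.6% ± 4.29 against 37.9% ± 3.996 in spleen (SD, n = 4 each), and of mixed Ptprca recipients, at 61.6% ± 3.20 against 43.9% ± 7.02 (SD, n = 4 each). In NSG recipients of GMP cells they stood at 49.6% ± 8.86 in marrow and 52.7% ± 3.86 in spleen (SD, n = 4 each), and in mixed NSG recipients at 46.1% ± 12.5 (SD, n = 3) and 49.0% ± 10.2 (SD, n = 4).

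Tested clone by clone as differences within the 15 mice that had both tissues, 2 members were called higher in marrow and none lower (limma, background 0.329% higher and 0% lower of 607). These 2 members, 321280 and 109489, were the only barcodes called. Another 8 members had an unadjusted p under 0.05. For 321280 the log2 difference (marrow minus spleen) was 2.39 (SE 0.30, limma adjusted p = 0.00192). Its marrow levels were 1727, 5150, 3133 and 3122 CPM in mice 5 to 8 against 488, 253, 448 and 284 CPM in spleen. In NSG mice 13 to 16 marrow held 4581, 3298, 2135 and 2431 CPM and spleen 75.6, 60.3, 435 and 83.6 CPM. In mixed Ptprca mice 17 to 20 the values were 1062, 1647, 2083 and 3071 CPM in marrow and 286, 235, 382 and 209 CPM in spleen. Marrow was above spleen in each of these 12 mice, but not in mixed NSG mice 21 to 23, where marrow held 122, 9.10 and 0 CPM and spleen 258, 13.99 and 9.60 CPM.

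For 109489 the log2 difference (marrow minus spleen) was 3.0 (SE 0.42, limma adjusted p = 0.00278), and marrow was higher in 14 of 15 mice. In Ptprca mice 5 to 8 its marrow levels were 4252, 3153, 3002 and 1663 CPM and its spleen levels 162, 118, 98.6 and 236 CPM. The exception was mouse 21, at 8.40 CPM in marrow and 82.7 CPM in spleen. Clone 321280 was also not called without the pairing by mouse (adjusted p = 0.212). Neither clone was called by edgeR, in mixed recipients alone, in NSG mice alone, or with values centred on the median barcode. Without the 6 libraries that held the most foreign barcodes, only mouse 5 of the Ptprca recipients of GMP cells kept both tissues. The calls of that fit are therefore not given. By edgeR and under the other settings named after it, the log2 difference of 321280 was 0.78 to 2.13 and that of 109489 was 1.87 to 3.57, all towards marrow. In 7 of the 10 mice in which it reached 10 CPM in a tissue, 518745 was instead higher in spleen, with mean levels over the 15 mice of 86.1 CPM in marrow and 129 CPM in spleen. Over all members, 160 of 214 combinations of member and mouse with at least 10 CPM in a tissue were higher in marrow, and 133 of 182 without mouse 8. The tissue difference was not called to depend on the host for any member (background 0% positive and 0% negative). In that test 10 members and 39 barcodes had an unadjusted p under 0.05 in limma, and edgeR called 0 members with TMM and 0 without.

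At the other end, some members were at 0 reads in most libraries. Clone 63301 (0.684% of the GMP pool) was at 0 reads in 29 of the 31 libraries, 262814 (0.662%) and 498808 (0.510%) in 27 each, and 320017 (1.36%) and 72590 (0.525%) in 26 each. For 63301 the marrow of mouse 8 held 21.8 CPM, which is 0.318% of its pool level, and no other library exceeded 0.147 CPM. For 262814 the same library held 21.2 CPM and no other exceeded 0.346 CPM. For 498808 these values were 19.5 CPM and 0.173 CPM. The levels of these 3 clones in the marrow of mouse 8 are thus about the share of the pool level at which the median pool barcode stood in that library, and elsewhere their levels were within those of members in recipients of LSK cells alone. Clone 320017, the fifth most abundant member of the pool, reached 45.3 CPM in the marrow of mouse 8 and at most 4.46 CPM in the other 30 libraries. Clone 53851 was at 0 reads in 23 libraries, at 40.5 CPM in the marrow of mouse 8 and at most 25.4 CPM in the others. Clone 72590 was above 10 CPM in 3 libraries, with 34.4 CPM in the marrow of mouse 5, 79.7 CPM in the marrow of mouse 8 and 57.5 CPM in its spleen. Clone 579248, named after its values were seen, was at 0 reads in 25 libraries, at 28.5 CPM in the marrow of mouse 8 and at most 9.51 CPM in the others.

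Other members were large in 1 mouse and low in the other mice of its group. Clone 98414 was at 2248 CPM in mouse 7, where it was the highest member, and at 38.5, 11.05 and 28.8 CPM in mice 5, 6 and 8. In the other 12 mice it did not exceed 51.2 CPM. In mouse 7 it was at 4478 CPM in marrow and 16.9 CPM in spleen. Clone 1050853 was at 408 CPM in mouse 20 and at most 33.5 CPM in the other 15. Clone 168783 was at 591 CPM in mouse 17 and 164 CPM in mouse 6, and at most 15.01 CPM in the others.

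The abundant clones of the pool showed mixtures of these patterns. The largest member, 34872, was at 30.8 CPM in mouse 5 but at 1286, 1885 and 1626 CPM in mice 6 to 8. Its marrow levels in mice 6 to 8 were 136, 3662 and 3253 CPM, and its spleen levels 2435, 108 and 0 CPM. The value of mouse 8 thus rests on its marrow library alone. The host difference of 34872 was called (limma adjusted p = 0.00355), but not without that library. In mixed Ptprca mice 17 to 20 the clone was at 178, 18.2, 0.31 and 247 CPM. In NSG mice it did not exceed 9.40 CPM. Clone 139413 ranged from 43.0 to 1293 CPM over mice 5 to 8 and from 9.49 to 1081 CPM over mice 17 to 20. Clone 902317 was even in Ptprca recipients of GMP cells, at 333, 249, 236 and 217 CPM, and uneven in mixed recipients, at 203, 1071, 19.2 and 91.0 CPM. Clone 11368 was among the 8 most abundant barcodes of the pool but did not exceed 108 CPM in any mouse.

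A few members moved together over the libraries of both hosts. These pairs were picked after their values were seen, from the 128 pairs with both members at 10 CPM or more in at least 10 libraries, whose median Pearson's r was 0.648 on log2(CPM + 10) over 31 libraries that all members share. Clones 10809 and 35245 had r = 0.995, and their ratio was 1.01 in the GMP pool, 0.967 in the mixed pool and 1.07 in the median of 19 libraries, with a range of 0.326 to 1.69. Both were far higher in Ptprca than in NSG mice, and r includes that shared difference between hosts. Clones 138752 and 51624 had r = 0.986, with a ratio of 0.59 in the GMP pool, 0.635 in the mixed pool and 0.687 in the median of 15 libraries. The third pair, 184185 and 95590, had r = 0.924, but its ratio ran from 0.276 to 3.71 over 16 libraries. Whether a pair of barcodes marks the same cells was not tested.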

How the data were processed

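Barcodes were amplified from genomic DNA, per the labels, which list 96 PCR libraries as duplicates of 48 mouse tissues and pools. The authors deposited filtered and collapsed tables in CPM, each column summing to 1000000. Bowtie 1.2.2 and R 3.6 are named in the submitters' processing notes, and the settings are not given in the sources used here. All deposited values were whole multiples of 1 step (100% within 0.01), taken as 1 read. Levels were rescaled to the mCherry reads of each library, and marrow and spleen were averaged per mouse. Intervals and the floor of 3 reads cover counting error only, since PCR reads are not independent molecules.

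limma 3.58.1 (R 4.3.3, trend) tested log2(CPM + 10) over 607 barcodes, called at an adjusted p under 0.05. The tissue fit takes differences within a mouse, since marrow and spleen are from the same animal per the labels, and their deviations from the group means correlated at -0.117 to 0.568 per mouse. edgeR 4.0.16 on the recovered reads was an alternative. On simulated data the host fit recovered 80% of changes of 2 log2 units and 100% of 4. The simulation gave every barcode the same spread between mice. Some members varied widely, such as 98414 at 11.05 to 2248 CPM over the Ptprca recipients of GMP cells. Recovery may therefore be lower in the real data. Clones were named by rule: the 10 most abundant in the pool, the 5 best retained and the highest per group, the 5 with most libraries at 0, up to 5 called per test and direction, and those beside the thresholds; others named were chosen after their values were seen. The members and lists were chosen with earlier results of these data known.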

Additional observations from a re-analysis of the deposited data

Results flagged for a closer look

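The members' summed share in mouse 24, a mixed NSG recipient with its spleen only, was 1.11% and stood apart from the other 3 mice of its group, which were at 0.0026% to 0.0424%; among the spleens of that group it was also the highest, at 1.11%. Of 15 group summaries examined for such a sample, these 2 stood out. Both rest on the same spleen library of mouse 24, so they are 1 observation. A nominal rate of about 1 in 20 assumes independent summaries. The summaries examined share mice and libraries, so that rate does not measure chance here. For single members, 25 of 71 sets of 4 mice with a value of at least 10 CPM had a mouse apart from the others.

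Members also had reads in mice that were given no GMP-derived cells. They summed to 23.7 CPM in the marrow of NSG mouse 12, 21.8 CPM in the marrow of Ptprca mouse 1 and 0.672 CPM in the marrow of Ptprca mouse 2. A count of 0 allows 3 reads for a single barcode. Of the 31 members listed in each of the first libraries, 13 (mouse 12) and 16 (mouse 1) had 1 to 3 reads. In mouse 2 the sum was 5 reads over 5 members, all within that limit.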

How the results depend on the processing

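The count of 16 members higher in Ptprca was 12 to 21 under all alternatives but mixed recipients only (6), and 16 to 18 with each mouse left out. The 21 came from edgeR without TMM, which called 168 of the 607 barcodes higher. With TMM, edgeR called 13 members and 88 of the 607 barcodes higher. With a mean of at least 100 CPM over mice, 13 of 15 members and 44 of 82 barcodes were called higher. That filter uses the mouse levels, so a barcode high in only 1 host can pass it. In recipients of GMP cells alone 12 members and 35 of the 607 barcodes were called higher. Without the marrow library of mouse 8, an alternative chosen after seeing the data, 14 members were called, all among the 16. Members lower with LSK cells numbered 0 in the main fit. They numbered 2 with a pseudocount of 100 CPM, 1 in marrow alone, and 0 to 2 with a mouse left out (2 without mouse 8, 2 without mouse 20, 1 without mouse 24). With a mean of at least 100 CPM over mice they were 2, among 5 of 82 barcodes called lower. Without trend there was 1, among 2 of 607. With CPM as deposited they were 3, but on that scale LSK reads lower the members' levels in mixed recipients. Members with a negative interaction of host and LSK cells numbered 2 with a pseudocount of 100 CPM, 1 with CPM as deposited, and 0 to 2 with a mouse left out. Except where stated, the number called among all tested barcodes is not given, so these counts are not read as particular to the members. In the tissue test, paired by mouse, 2 members were higher in marrow, and 2 to 3 with a mouse left out. Without the replicate block 1 was called. With a mean of at least 100 CPM over mice 6 were called, among 20 of 82 barcodes called higher. The count was 0 when centred on the median barcode, by edgeR without and with TMM, in mixed recipients only and in NSG mice only. Without the 6 libraries with foreign barcodes, only mouse 5 of the Ptprca recipients of GMP cells kept both tissues. The calls for tissue, and for the interaction of tissue and host, are therefore not given for that setting. No sign reversed among the clones named for a call.

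The members' summed share in marrow alone and spleen alone was 2.29% and 0.515% in Ptprca recipients of GMP cells, 0.378% and 0.0335% in NSG recipients of GMP cells, and 1.75% and 0.347% in mixed Ptprca recipients, where CPM as deposited gave 0.652%. In mixed NSG recipients, at 0.293%, it was 0.0120% in marrow alone (3 mice), 0.300% in spleen alone and 0.132% with CPM as deposited. Without the marrow library of mouse 8 the share in Ptprca recipients of GMP cells was 1.21%, with mouse 8 counted by its spleen alone (0.536%). With a mouse left out it was 1.32% to 1.45% there, 0.179% to 0.226% in NSG recipients of GMP cells, 1.01% to 1.08% in mixed Ptprca and 0.0215% to 0.389% in mixed NSG recipients. The mean number of members at or over the minimum was, in the same order of groups, 24.2, 4, 18.2 and 3.5 at 10 CPM; at 1000 CPM it was 5.75 in Ptprca recipients of GMP cells and 3.75 in mixed Ptprca recipients. In spleen alone at 100 CPM it was 11, 0.75 and 7.5 in the first 3 groups. A pool minimum of 7000 CPM left 21 members. The cause of these changes was not tested, and 4 mice a group limit the precision.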
